A study of Arabidopsis thaliana with 18 samples.

Results

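Arabidopsis thaliana plants of accession Est had been treated with SA or with the carrier alone, and the 18 arrays examined here are all 18 of the series, 9 per treatment. SA is taken to be the hormone salicylic acid. SA plants received 0.3 mM SA in 0.02% silwet, a wetting agent that lets a solution spread over leaves, and silwet plants 0.02% silwet alone, so that both treatments carried the wetting agent. The titles number the arrays in runs of 3. Run pair 1 sets SA titles 46 to 48 against silwet titles 37 to 39, run pair 2 sets SA titles 49 to 51 against silwet titles 40 to 42, and run pair 3 sets SA titles 52 to 54 against silwet titles 43 to 45. Each run holds the replicate numbers 1, 2 and 3. The labels do not say what separates the runs, and they give no tissue, plant age, harvest time or number of plants per array, so the runs are called by their title numbers. They also do not say that the 3 arrays of a run came from separate plants, and the p-values then measure only the spread between these arrays, which may be technical. The titles carry a further number whose meaning is not given, and it was 2 to 6 units higher on the SA array than on the silwet array of the same run pair and replicate number.

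The question was whether the response to SA differed between runs. The quantity described throughout is a difference of differences: SA minus silwet in run pair 1, minus the mean of SA minus silwet in run pairs 2 and 3, on the scale log2(signal + 16). A positive value means that SA minus silwet was higher in run pair 1 than later, and a negative value that it was lower in run pair 1 than later. Run pairs 2 and 3 enter as a mean, so the value does not depend on which of the later silwet runs stands beside which later SA run, but it does depend on silwet titles 37 to 39 being the partner of SA titles 46 to 48. The p-values come from 1 limma model over all 18 arrays with run pair, treatment and replicate number, adjusted by the Benjamini-Hochberg method over the 17059 probe sets tested, and a probe set is called where the adjusted p is under 0.05. The 18 arrays had median signals of 27.4 to 35.7 after the deposited scaling. Log2 levels are comparable between arrays for 1 probe set, and not between probe sets.

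Salicylic acid is a plant hormone that accumulates after attack by biotrophic pathogens. It is perceived by the NPR proteins, which act with TGA transcription factors to switch on defence genes, and WRKY factors and a cohort of endoplasmic reticulum chaperones that fold and export secreted defence proteins are known among its targets in leaves. Glucosyltransferases hold the hormone in check by conjugating it.

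SA minus silwet in run pair 1 differed from that of the later pairs for 1526 of the 17059 probe sets tested (8.95%), 772 of them positive (4.53%) and 754 negative (4.42%). At an unadjusted p under 0.05 the limma fit gave 3876 probe sets. The median over all tested probe sets was −0.05, and the median standard error was 0.21. Among the called positive probe sets, the median SA minus silwet difference was 0.67 in run pair 1, −0.31 in run pair 2 and −0.22 in run pair 3. Among the called negative ones these medians were −0.68, 0.32 and 0.20. These medians describe probe sets chosen by the same arrays and support nothing on their own. Of the called probe sets, 421 positive and 408 negative ones carry 1 gene name.

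**Figure D1:**
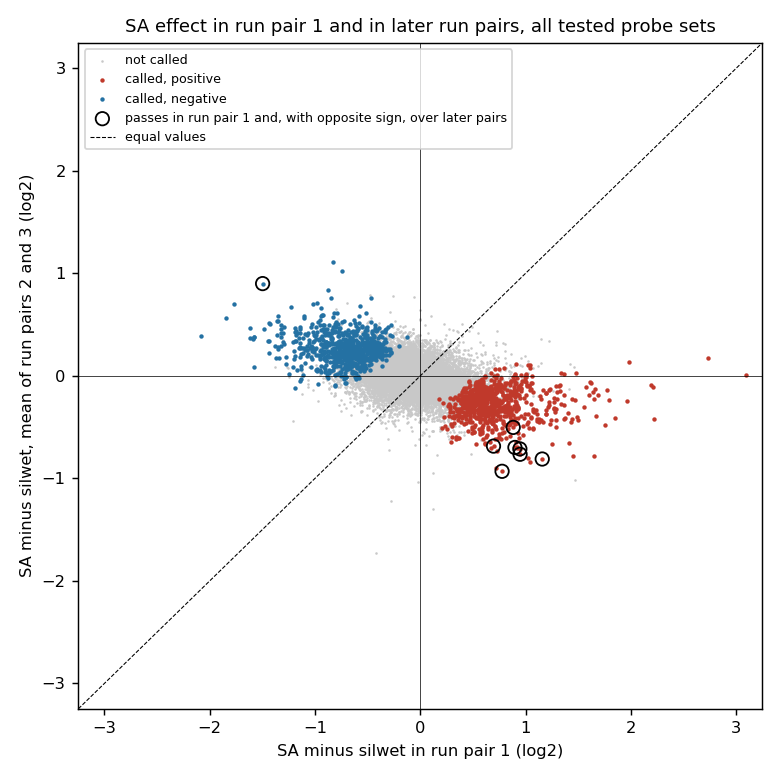
SA minus silwet in run pair 1 (x axis, log2) against the mean of SA minus silwet in run pairs 2 and 3 (y axis, log2) for the 17059 tested probe sets. Red points are the 772 called positive and blue points the 754 called negative, grey points were not called, and circles mark the 8 probe sets that passed in run pair 1 and, with the opposite sign, over the later pairs. The called points lie away from the dashed line of equal values, mostly in the upper left and lower right quadrants.

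Neither later pair gave a call on its own. SA minus silwet was called for 1142 probe sets in run pair 1 (6.69%), 558 higher and 584 lower under SA. In run pair 2 limma called 0, with a smallest adjusted p of 0.0541 and 1629 probe sets at an unadjusted p under 0.05. In run pair 3 it called 0, with a smallest adjusted p of 0.100 and 1691 at an unadjusted p under 0.05. Over the mean of run pairs 2 and 3, whose median standard error was 0.12 against 0.17 for run pair 1, 10 probe sets were called (0.0586%), 1 higher and 9 lower under SA, and 1536 had an unadjusted p under 0.05.

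The same test was run against each later pair. Run pair 1 minus run pair 2 was called for 1296 probe sets (7.6%), 611 positive and 685 negative. Run pair 1 minus run pair 3 was called for 712 (4.17%). Both of these share the arrays of run pair 1. Run pair 2 minus run pair 3 was called for 0 probe sets by limma, with a smallest adjusted p of 0.452 and 1769 at an unadjusted p under 0.05. The 95% interval of that last difference had a median half-width of 0.51, and for 13189 probe sets (77.3%) it lay within 1 log2 unit of 0. A smaller difference between run pairs 2 and 3 was not detectable with 3 arrays per run, and the missing calls do not show that the 2 pairs were alike.

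Across the 17059 probe sets the SA effects of run pair 1 and of the later mean, which share no array, correlated at r = −0.449. Run pair 1 correlated at r = −0.469 with run pair 2 and at r = −0.148 with run pair 3, and run pairs 2 and 3 correlated at r = −0.0453 with each other. These are descriptions across probe sets of the same arrays, which are not independent replicates. SA minus silwet had opposite signs in run pair 1 and over the later pairs for 61.5% of all tested probe sets. The share was 97.4% (752 of 772) among the called positive probe sets and 97.5% (735 of 754) among the called negative ones, whose choice favours such a pattern.

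Both treatments can contribute to a difference of differences, and the SA arrays carried most of it. The SA part is SA titles 46 to 48 minus the mean of the later SA runs, the silwet part is silwet titles 37 to 39 minus the mean of the later silwet runs, and the difference of differences is the first minus the second. Among the called positive probe sets the median SA part was 1.14 and the median silwet part 0.18. Among the called negative ones they were −1.003 and −0.07. The silwet part was the larger in size for 27 of the 772 positive probe sets (3.50%) and for 18 of the 754 negative ones (2.39%), against 31.5% of all tested probe sets. The 3′ to 5′ signal ratio of the control transcripts, a measure of RNA integrity and labelling, also moved between runs. On the log2 scale it averaged 1.07 ± 0.13, 1.32 ± 0.19 and 1.56 ± 0.33 on the SA arrays of run pairs 1, 2 and 3, against 1.09 ± 0.15, 1.29 ± 0.25 and 1.46 ± 0.20 on the silwet arrays (SD, n = 3 each). The ratio increased over the runs in both treatments. With it in the model, limma called 758 positive and 763 negative probe sets.

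**Figure D2:**
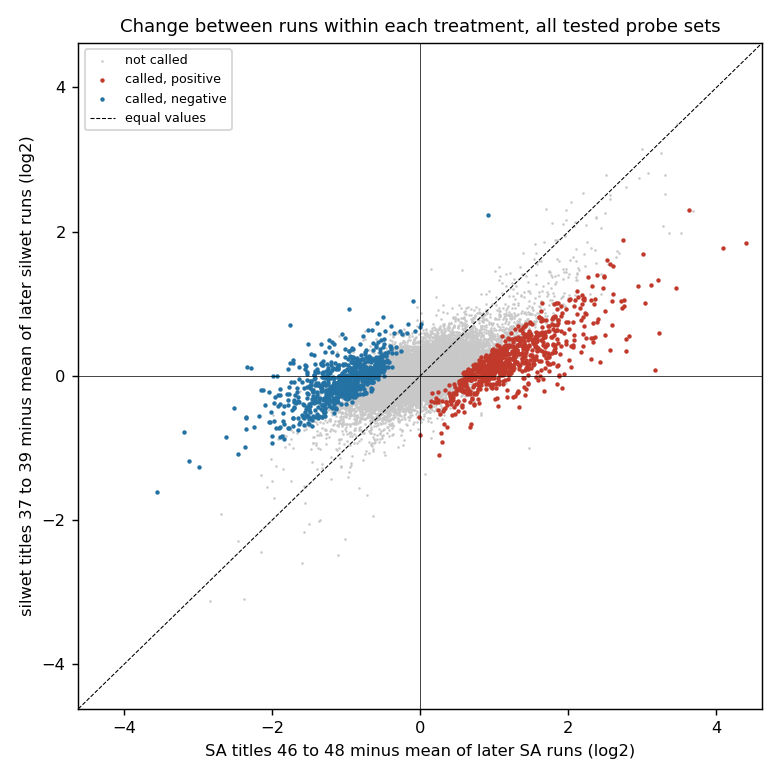
SA titles 46 to 48 minus the mean of the later SA runs (x axis, log2) against silwet titles 37 to 39 minus the mean of the later silwet runs (y axis, log2) for the 17059 tested probe sets, with called positive probe sets in red and called negative ones in blue. The called points spread along the x axis, with median SA parts of 1.14 and −1.003.

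The called probe sets fell into classes by where SA minus silwet itself passed. In 972 of the 1526 (485 positive, 487 negative, 546 with 1 gene name) it passed in run pair 1 and not over the later pairs, and these are described as faded. In 8 (7 positive, 1 negative) it passed in both with opposite signs, a reversal. In 2, both positive, it passed over the later pairs and not in run pair 1. None passed in both with the same sign, where run pair 1 had 1142 calls and the later mean 10. The other 544 (278 positive, 266 negative) passed in neither. By size alone, 96 called probe sets (58 positive, 38 negative, 44 with 1 gene name) had SA minus silwet of at least 0.5 in run pair 1 and at least 0.5 with the opposite sign over the later pairs. These include the 8 reversed ones, and the rest were classed as faded or as passing in neither. Faded thus says only which test passed, and not that the later difference was absent. AT5G55420, classed as faded, had −0.84 over the later pairs, and the reversed ATERDJ3B −0.71.

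The count rested on some arrays more than on others. Leaving out the arrays numbered 2, limma called 59 probe sets (44 positive, 15 negative), and without those numbered 3 it called 162 positive and 131 negative ones, while without those numbered 1 it called 1769 (803 and 966). Leaving out single arrays gave 648 calls without replicate 2 of SA titles 46 to 48, 892 without its replicate 3 and 751 without replicate 2 of silwet titles 37 to 39. The sign was unchanged in at least 1524 of the called probe sets still tested in every one of these fits. These probe sets were chosen by the same arrays, so a kept sign was close to given and supports nothing on its own. Without the replicate number in the model, 836 probe sets were called (431 positive, 405 negative), all of them among the 1526. Of all tested, 5 probe sets (4 positive, 1 negative) had a change that limma placed beyond 2-fold.

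Reversed genes were those in which SA minus silwet passed both in run pair 1 and, with the opposite sign, over the later pairs, and 5 of the 8 carry 1 gene name.

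ATERDJ3B (AT3G62600) is a DnaJ-type co-chaperone of the endoplasmic reticulum that works with BiP and is needed for surface receptors of bacterial elongation factor. ATERDJ3B read 10.56, 10.44 and 10.67 under SA in run pair 1, against 9.88, 9.14 and 9.81 under silwet. Levels of 8.75, 8.77 and 9.26 under SA, against 9.58, 9.46 and 9.86 under silwet, followed in run pair 2. Levels of 9.32, 8.47 and 9.19 under SA, against 9.80, 9.56 and 9.79 under silwet, made up run pair 3. The SA arrays lay above all silwet arrays in run pair 1 and below all of them in run pairs 2 and 3. For ATERDJ3B, SA minus silwet came to 0.94, −0.70 and −0.72 in run pairs 1, 2 and 3 (SE 0.16 each), a difference of differences of 1.66 ± 0.19 (SE; limma adjusted p = 0.000154).

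AT1G11330 encodes a receptor kinase of the S-locus lectin family. AT1G11330 measured 8.70, 8.41 and 8.72 on SA arrays 46 to 48, against 7.64, 7.65 and 8.21 on silwet arrays 37 to 39. AT1G11330 then had 6.46, 6.24 and 6.95 under SA and 7.44, 7.45 and 7.79 under silwet in run pair 2. AT1G11330 ended with 6.84, 6.64 and 7.37 under SA and 7.78, 7.88 and 7.74 under silwet in run pair 3. Its 3 SA arrays were the highest of run pair 1 and the lowest of both later pairs, with no overlap in any pair. AT1G11330 gave SA minus silwet of 0.78, −1.01 and −0.85 in run pairs 1, 2 and 3 (SE 0.16 each). For AT1G11330 the difference of differences was 1.71 ± 0.20 (SE; limma adjusted p = 0.000154).

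GFAT (AT3G24090) encodes glutamine-fructose-6-phosphate aminotransferase, which opens the hexosamine pathway that supplies sugars for protein glycosylation. GFAT had log2 levels of 7.60, 7.10 and 7.83 on the SA arrays of run pair 1, against 6.54, 6.04 and 6.50 on the silwet arrays. Run pair 2 gave GFAT 5.34, 5.44 and 5.71 under SA and 6.56, 5.82 and 6.49 under silwet. In pair 3, GFAT had 6.41, 5.12 and 5.96 under SA and 6.89, 6.37 and 6.73 under silwet. SA and silwet arrays did not overlap in run pair 1 or run pair 2, and overlapped in run pair 3 through SA replicate 1. GFAT thus differed between SA and silwet by 1.16, −0.79 and −0.83 in run pairs 1, 2 and 3 (SE 0.19 each). This made a difference of differences of 1.97 ± 0.23 (SE; limma adjusted p = 0.000154).

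AT5G62360, a member of the plant invertase and pectin methylesterase inhibitor family, was the 1 reversed probe set with a negative value. AT5G62360 read 7.47, 7.62 and 7.42 under SA in run pair 1, against 9.24, 8.71 and 9.05 under silwet. Levels of 9.60, 10.12 and 9.84 under SA, against 8.79, 9.06 and 8.71 under silwet, followed in run pair 2. Levels of 9.52, 10.15 and 9.52 under SA, against 8.68, 9.50 and 8.61 under silwet, made up run pair 3. The SA arrays were below the silwet arrays in run pair 1 and above them in run pairs 2 and 3 without overlap. For AT5G62360, SA minus silwet came to −1.50, 0.997 and 0.80 in run pairs 1, 2 and 3 (SE 0.20 each), a difference of differences of −2.40 ± 0.24 (SE; limma adjusted p = 4.96e-05).

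AT1G13470 was the fifth reversed gene and was added after its values were seen. Its difference of differences was 1.60 ± 0.20 (SE; limma adjusted p = 0.000236), with SA minus silwet of 0.90 in run pair 1, −0.88 in run pair 2 and −0.52 in run pair 3. The number of reversed probe sets was itself unsteady: it was 14 after quantile normalization, 1 with the 3′ to 5′ ratio as a covariate or with no filter on dim probe sets, and 0 without the replicate number or without the arrays of any 1 number.

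AT5G55450, of the lipid transfer protein family, was the 1 named probe set in which SA minus silwet passed later and not in run pair 1. AT5G55450 measured 11.10, 11.003 and 11.09 on SA arrays 46 to 48, against 10.89, 10.60 and 10.76 on silwet arrays 37 to 39. AT5G55450 then had 10.54, 10.33 and 10.70 under SA and 11.002, 11.03 and 11.46 under silwet in run pair 2. AT5G55450 ended with 10.78, 10.91 and 11.13 under SA and 11.20, 11.16 and 11.32 under silwet in run pair 3. The SA arrays were above the silwet arrays in run pair 1 and below them in run pairs 2 and 3, without overlap. AT5G55450 gave SA minus silwet of 0.31, −0.64 and −0.29 in run pairs 1, 2 and 3 (SE 0.11 each). For AT5G55450 the difference of differences was 0.78 ± 0.13 (SE; limma adjusted p = 0.00215). It was not called with either other silwet run as the partner of SA titles 46 to 48, nor at the 2-fold limit. Its lowest value in any alternative was 0.06.

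**Figure D3:**
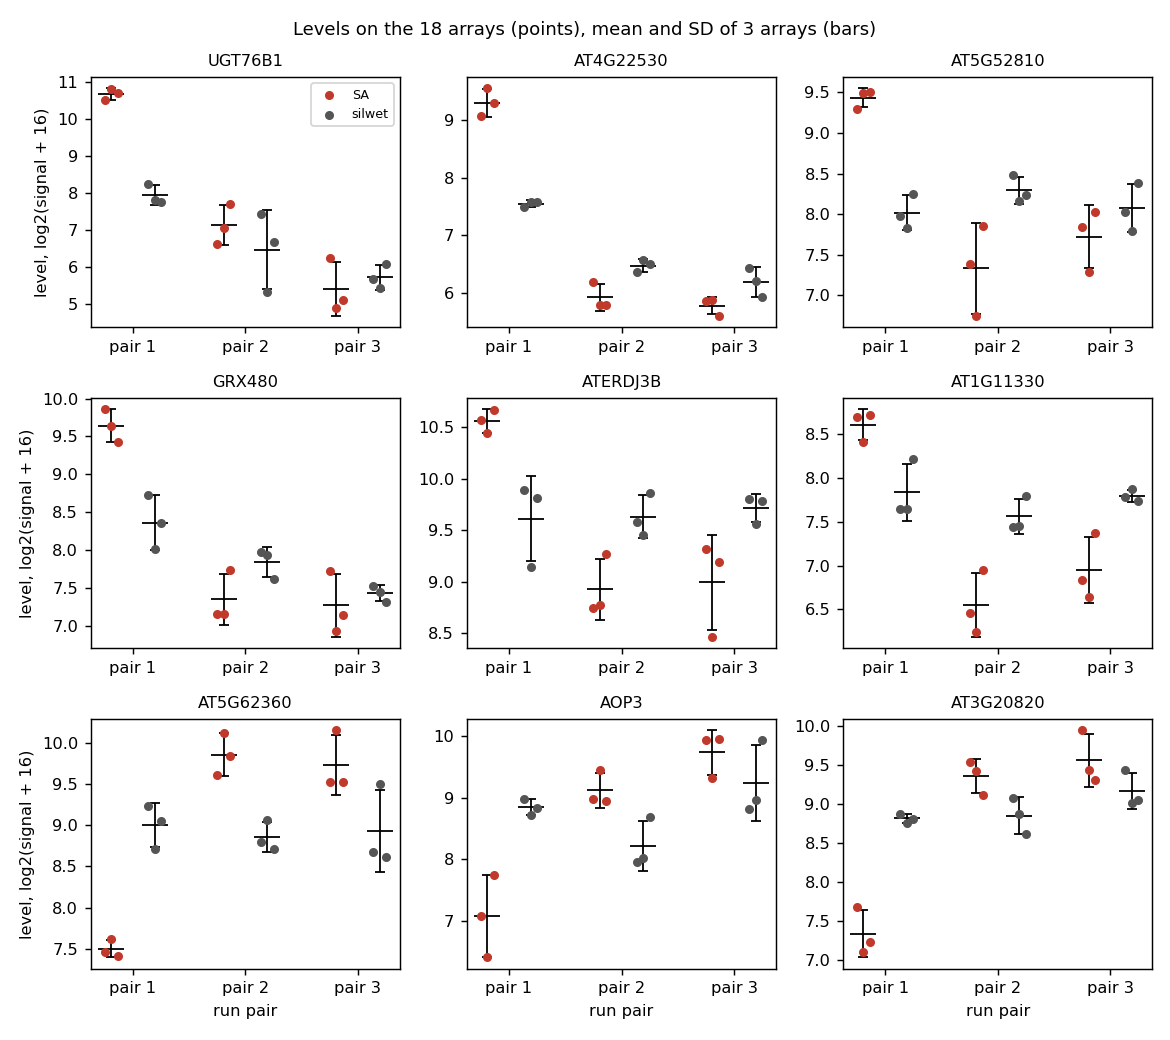
Level, log2(signal + 16), on each of the 18 arrays for 9 named genes, with SA arrays in red left of silwet arrays in grey within each run pair. Horizontal bars are means and error bars SDs of 3 arrays. SA lies on one side of silwet in run pair 1 for all 9 genes and on the other side, or among the silwet arrays, in run pairs 2 and 3.

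Of 31 loci of the SA synthesis and signalling list, 5 carried a name on the array and 4 were tested: 3 were called positive, 0 negative and 1 not called, where 4.53% of all probe sets were called positive. The list's median was 1.17, against −0.05 over all tested. Well-known reporters that are not among these 5 were not analysed here. This list and those below were chosen with earlier results of these data known, so their counts only describe them.

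UGT76B1 encodes a glucosyltransferase that conjugates SA and isoleucic acid and dampens SA signalling. UGT76B1 had log2 levels of 10.51, 10.81 and 10.70 on the SA arrays of run pair 1, against 8.25, 7.82 and 7.76 on the silwet arrays. Run pair 2 gave UGT76B1 6.63, 7.06 and 7.70 under SA and 7.43, 5.32 and 6.68 under silwet. In pair 3, UGT76B1 had 6.24, 4.89 and 5.11 under SA and 5.67, 5.43 and 6.08 under silwet. In run pair 1 every SA array was more than 2 log2 units above every silwet array, and in the later pairs the groups overlapped. UGT76B1 thus differed between SA and silwet by 2.73, 0.65 and −0.31 in run pairs 1, 2 and 3 (SE 0.38 each). This made a difference of differences of 2.56 ± 0.46 (SE; limma adjusted p = 0.00268). Both treatments were higher in the first run: the SA part was 4.40 and the silwet part 1.85. UGT76B1 was not alone in this, the silwet part of WRKY53 being 1.33. Over the 12 largest positive named genes the silwet part ran from −0.21 to 1.85.

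GRX480 (AT1G28480), a glutaredoxin that binds TGA factors and links SA to the repression of jasmonate responses, also had a positive value. GRX480 read 9.86, 9.64 and 9.42 under SA in run pair 1, against 8.73, 8.01 and 8.35 under silwet. Levels of 7.15, 7.15 and 7.73 under SA, against 7.97, 7.94 and 7.61 under silwet, followed in run pair 2. Levels of 7.72, 6.93 and 7.14 under SA, against 7.52, 7.45 and 7.31 under silwet, made up run pair 3. SA was above silwet without overlap in run pair 1, and the groups overlapped in both later pairs. For GRX480, SA minus silwet came to 1.28, −0.50 and −0.16 in run pairs 1, 2 and 3 (SE 0.20 each), a difference of differences of 1.61 ± 0.25 (SE; limma adjusted p = 0.000999). SAG101, a partner of the lipase-like immune regulator EDS1, had a smaller difference of differences of 0.73 ± 0.19 (SE; limma adjusted p = 0.0211; called in 13 of the 18 fits with 1 array left out), with SA minus silwet of 0.48, −0.24 and −0.25 in run pairs 1, 2 and 3. RING1, a ubiquitin ligase, had 0.01 ± 0.23.

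AT5G52810, known as SARD4, encodes a reductase of the last step to pipecolic acid, a metabolite of systemic resistance. AT5G52810 measured 9.30, 9.49 and 9.51 on SA arrays 46 to 48, against 7.98, 7.83 and 8.25 on silwet arrays 37 to 39. AT5G52810 then had 7.39, 6.75 and 7.86 under SA and 8.48, 8.16 and 8.23 under silwet in run pair 2. AT5G52810 ended with 7.85, 7.28 and 8.03 under SA and 8.03, 7.80 and 8.38 under silwet in run pair 3. The SA arrays were the 3 highest of run pair 1, were the 3 lowest of run pair 2, and overlapped silwet in run pair 3. AT5G52810 gave SA minus silwet of 1.41, −0.96 and −0.35 in run pairs 1, 2 and 3 (SE 0.19 each). For AT5G52810 the difference of differences was 2.07 ± 0.23 (SE; limma adjusted p = 8.32e-05).

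WRKY53, a WRKY factor of defence and leaf senescence, was the 1 called member of the 3 tested WRKY factors, with a positive value. Over all probe sets 4.53% were called positive. WRKY6 stood at 0.60 ± 0.38 and WRKY22 at −0.24 ± 0.28, neither called. WRKY53 had log2 levels of 9.77, 9.72 and 9.76 on the SA arrays of run pair 1, against 8.77, 7.84 and 8.17 on the silwet arrays. Run pair 2 gave WRKY53 7.11, 5.98 and 6.61 under SA and 7.06, 7.17 and 6.86 under silwet. In pair 3, WRKY53 had 7.02, 5.92 and 6.55 under SA and 6.55, 6.97 and 6.99 under silwet. SA exceeded silwet in run pair 1 with no overlap, and it overlapped silwet later. WRKY53 thus differed between SA and silwet by 1.49, −0.46 and −0.34 in run pairs 1, 2 and 3 (SE 0.25 each). This made a difference of differences of 1.89 ± 0.31 (SE; limma adjusted p = 0.00154). Its 3 replicate numbers gave 0.74, 2.996 and 1.93, the same sign but of unequal size. Of 14 tested members of the touch, pattern and receptor kinase list, 2 were called positive, 0 negative and 12 not called, where 4.53% of all probe sets were called positive, with a median of 0.51 and 12 values above 0. The 2 were AT3G01830, a calmodulin-like protein, at 1.25 ± 0.26 (SE; limma adjusted p = 0.0069), and SD1-29, an S-domain receptor kinase that senses bacterial lipid metabolites, at 0.82 ± 0.25 (limma adjusted p = 0.0479). SD1-29 was called in 5 of the 18 fits that leave out 1 array and not without the replicate number. EFR, the receptor for bacterial elongation factor, had 0.52 ± 0.23, and BIK1, the kinase that relays receptor signals, 0.35 ± 0.26, neither of them called.

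By its medians, the endoplasmic reticulum folding and export list was higher under SA in run pair 1 and lower under SA later. All 12 named members were tested: 7 were called positive, 0 negative and 5 not called, where 4.53% of all probe sets were called positive and 4.42% negative, and 11 of 12 values were above 0. The list was chosen with earlier results of these data known, so these counts only describe it. The median difference of differences was 0.98, with median SA minus silwet of 0.51 in run pair 1, −0.33 in run pair 2 and −0.34 in run pair 3. ATERDJ3B is described above. The protein-conducting channel gave AT3G60540, a Sec61 beta subunit, at 1.55 ± 0.27 (SE; limma adjusted p = 0.00224), AT1G29310, a Sec61 alpha subunit, at 1.10 ± 0.22 (limma adjusted p = 0.00573), and AT2G34250, another alpha subunit, at 0.62 ± 0.17. AT3G60540 read 8.13, 9.13 and 8.96 under SA in run pair 1, against 7.73, 7.28 and 8.11 under silwet. Levels of 7.28, 7.15 and 7.68 under SA, against 7.90, 8.01 and 7.93 under silwet, followed in run pair 2. Levels of 7.65, 7.20 and 7.64 under SA, against 7.96, 7.74 and 8.14 under silwet, made up run pair 3. In run pair 1 the Sec61 beta SA arrays were above silwet, and in both later pairs below it, without overlap in each of the 3 pairs. The lectin chaperones calreticulin (CRT1b) and calnexin (AT5G07340) had 1.07 ± 0.22 and 1.06 ± 0.23. DER1, a protein of endoplasmic reticulum-associated degradation, had 1.03 ± 0.17 (limma adjusted p = 0.00158). DER1 measured 8.80, 8.55 and 8.88 on SA arrays 46 to 48, against 8.28, 7.91 and 7.98 on silwet arrays 37 to 39. DER1 then had 7.51, 7.51 and 7.47 under SA and 8.14, 8.10 and 7.95 under silwet in run pair 2. DER1 ended with 8.02, 7.55 and 7.67 under SA and 8.08, 7.67 and 7.81 under silwet in run pair 3. SA was above silwet in run pair 1, below it in run pair 2 and overlapping in run pair 3. Those not called were AT4G16660, an HSP70-family chaperone, at 0.94 ± 0.35, ATERDJ2B at 0.79 ± 0.24, BZIP60, a transcription factor of the unfolded protein response, at 0.61 ± 0.26, ATERDJ2A at 0.16 ± 0.23 and the Sec61-like AT1G78720 at −0.09 ± 0.19. Without the arrays numbered 2, or without those numbered 3, 1 member of this list was still called, at the 2-fold limit 0 were, and none was called negative in any alternative. The heat shock and cytosolic folding list had 0 positive, 1 negative and 5 not called among 6 tested, where 4.53% and 4.42% of all probe sets were called positive and negative. Its median was 0.28, and 4 of its 6 values were above 0. The largest of these were Hsp70-2 at 0.78 ± 0.28 and AT3G09440 at 0.71 ± 0.25, neither called. The difference between the lists was not tested. The called member of the heat shock list, the small heat shock protein AT1G54050, had a low mean level of 4.99. Its difference of differences was −0.60 ± 0.18 (SE; limma adjusted p = 0.0446). It was called in 4 of the 18 fits with 1 array left out and in 5 of 13 other alternatives, and not after quantile normalization or without the replicate number.

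**Figure D4:**
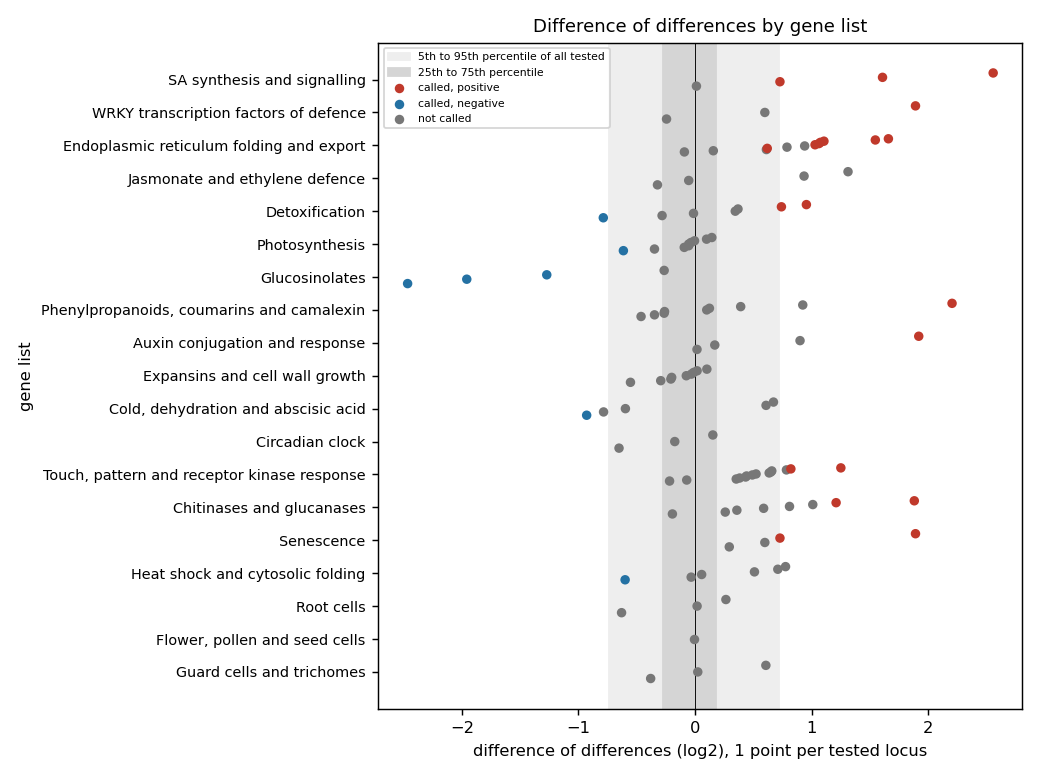
Difference of differences (x axis, log2) of every tested member of the 19 gene lists (rows), with called positive members in red, called negative ones in blue and the rest in grey. Shading spans the 5th to 95th percentile (−0.74 to 0.72) and the 25th to 75th percentile (−0.27 to 0.18) of all tested probe sets. In the endoplasmic reticulum list 11 of 12 points lie right of 0, and in the glucosinolate list all 4 lie left of it.

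AT3G13610, known as F6'H1, makes the precursor of the coumarin scopoletin. AT3G13610 had log2 levels of 8.25, 9.46 and 8.92 on the SA arrays of run pair 1, against 7.17, 6.54 and 7.05 on the silwet arrays. Run pair 2 gave AT3G13610 7.42, 6.19 and 6.25 under SA and 7.52, 6.50 and 7.14 under silwet. In pair 3, AT3G13610 had 6.71, 5.46 and 5.88 under SA and 5.999, 6.14 and 6.08 under silwet. SA was above silwet in run pair 1 without overlap, and overlapped it later. For AT3G13610, SA minus silwet came to 1.96, −0.44 and −0.06 in run pairs 1, 2 and 3 (SE 0.34 each), a difference of differences of 2.20 ± 0.42 (SE; limma adjusted p = 0.00372). Of the 9 tested members of the phenylpropanoid, coumarin and camalexin list it was the 1 called, near the 8.95% called over all probe sets. The list's median was 0.10. The numbers 1, 2 and 3 gave it 0.78, 3.42 and 2.42.

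Of the glucosinolate list, 3 genes were lower under SA in run pair 1 and not called over the later pairs. Of 4 tested members, 0 were called positive and 3 negative, where 4.42% of all probe sets were called negative. The list's median was −1.61. This list too was chosen with earlier results of these data known, so the count only describes it. Without the arrays numbered 2, 1 of the 3 was still called, and 0 at the 2-fold limit. With silwet titles 40 to 42 as the partner of SA titles 46 to 48, 2 members were called negative and 1 positive. AT2G31790, described below, was not called in that fit. AOP3 encodes the dioxygenase that makes hydroxyalkyl glucosinolates, the defence compounds of the cabbage family, and had the most negative value of the named genes. AOP3 read 7.08, 6.41 and 7.75 under SA in run pair 1, against 8.98, 8.72 and 8.84 under silwet. Levels of 8.98, 9.44 and 8.94 under SA, against 7.95, 8.02 and 8.69 under silwet, followed in run pair 2. Levels of 9.93, 9.32 and 9.95 under SA, against 8.81, 8.96 and 9.94 under silwet, made up run pair 3. Its SA arrays were the lowest in run pair 1 and the highest in run pair 2, and in run pair 3 the groups overlapped. AOP3 gave SA minus silwet of −1.77, 0.90 and 0.50 in run pairs 1, 2 and 3 (SE 0.27 each). For AOP3 the difference of differences was −2.46 ± 0.33 (SE; limma adjusted p = 0.000348). AT2G31790, known as UGT74C1, is a glucosyltransferase of glucosinolate synthesis. AT2G31790 measured 6.43, 5.89 and 6.52 on SA arrays 46 to 48, against 7.90, 8.28 and 7.40 on silwet arrays 37 to 39. AT2G31790 then had 7.61, 8.38 and 7.21 under SA and 6.91, 7.11 and 7.37 under silwet in run pair 2. AT2G31790 ended with 7.48, 7.91 and 8.17 under SA and 7.49, 7.82 and 7.81 under silwet in run pair 3. SA was below silwet in run pair 1, and the groups overlapped later. AT2G31790 thus differed between SA and silwet by −1.58, 0.61 and 0.15 in run pairs 1, 2 and 3 (SE 0.27 each). This made a difference of differences of −1.96 ± 0.34 (SE; limma adjusted p = 0.00201). BCAT4, the aminotransferase that starts the chain elongation of methionine, had −1.27 ± 0.30 (SE; limma adjusted p = 0.0134), with SA minus silwet of −0.87, 0.36 and 0.45 in run pairs 1, 2 and 3. UGT74B1, another glucosyltransferase of glucosinolate synthesis, had −0.27 ± 0.24. AT3G19000, of the 2-oxoglutarate-dependent oxygenase superfamily but not of this list, had −1.76 ± 0.24.

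IAGLU, which glucosylates the auxin indole-3-acetic acid, was the 1 called of 4 tested members of the auxin list, with a positive value. Over all probe sets 4.53% were called positive. IAGLU had log2 levels of 8.07, 8.62 and 8.09 on the SA arrays of run pair 1, against 5.41, 6.90 and 7.15 on the silwet arrays. Run pair 2 gave IAGLU 6.12, 6.32 and 6.40 under SA and 6.24, 7.04 and 6.67 under silwet. In pair 3, IAGLU had 6.31, 5.86 and 6.34 under SA and 5.99, 6.06 and 6.21 under silwet. SA lay above silwet in run pair 1, and the groups overlapped later. For IAGLU, SA minus silwet came to 1.77, −0.37 and 0.08 in run pairs 1, 2 and 3 (SE 0.28 each), a difference of differences of 1.92 ± 0.35 (SE; limma adjusted p = 0.00268). Of 7 tested detoxification genes, 2 were called positive and 1 negative, where 4.53% and 4.42% of all probe sets were, and 4 not called, with a median of 0.34. The adjacent glucosyltransferase genes UGT73B5 and UGT73B4 had 0.95 ± 0.26 (SE; limma adjusted p = 0.0282) and 0.74 ± 0.22 (limma adjusted p = 0.0479), and GSTU20, a glutathione transferase, −0.79 ± 0.20 (limma adjusted p = 0.0209). With 1 array left out, UGT73B5 was called in 11 of 18 fits, UGT73B4 in 4 of the 15 fits that tested it and GSTU20 in 15 of 18. UGT73B4 lay near the lowest value of the scale later, at 4.08 to 4.13 under SA and 4.09 to 4.15 under silwet in run pair 2. In run pair 3 it had 4.03 to 4.08 and 4.08 to 4.61. A lowering under SA could hardly be seen there. In run pair 1 its groups overlapped, at 5.21 to 6.30 under SA and 4.85 to 5.31 under silwet.

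Secreted hydrolases of the chitinase and glucanase list gave 2 positive calls, 0 negative and 6 not called among 8 tested, where 4.53% of all probe sets were called positive, with a median of 0.70. AT1G02360, a chitinase family protein, had the larger value. AT1G02360 read 7.47, 7.80 and 8.06 under SA in run pair 1, against 6.40, 5.78 and 6.20 under silwet. Levels of 5.28, 5.07 and 5.05 under SA, against 5.11, 5.78 and 5.79 under silwet, followed in run pair 2. Levels of 5.27, 5.16 and 5.29 under SA, against 4.95, 5.33 and 5.53 under silwet, made up run pair 3. SA was above silwet in run pair 1 without overlap, and the groups overlapped in the later pairs. AT1G02360 gave SA minus silwet of 1.65, −0.43 and −0.03 in run pairs 1, 2 and 3 (SE 0.20 each). For AT1G02360 the difference of differences was 1.88 ± 0.25 (SE; limma adjusted p = 0.000329). AT4G01700, of the same family, had 1.21 ± 0.31 (SE; limma adjusted p = 0.0228).

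The most precisely measured of the largest positive values was that of AT4G22530, a methyltransferase superfamily gene. AT4G22530 measured 9.06, 9.55 and 9.30 on SA arrays 46 to 48, against 7.49, 7.59 and 7.58 on silwet arrays 37 to 39. AT4G22530 then had 6.20, 5.79 and 5.79 under SA and 6.36, 6.57 and 6.50 under silwet in run pair 2. AT4G22530 ended with 5.85, 5.88 and 5.60 under SA and 6.43, 6.20 and 5.92 under silwet in run pair 3. SA was above silwet in run pair 1 and below it in both later pairs, without overlap in any pair. AT4G22530 thus differed between SA and silwet by 1.75, −0.55 and −0.41 in run pairs 1, 2 and 3 (SE 0.17 each). This made a difference of differences of 2.23 ± 0.20 (SE; limma adjusted p = 3.14e-05). The rest of the 12 largest positive named genes were AT4G01870 at 2.26 ± 0.40, AT4G32870, of a polyketide cyclase and lipid transport superfamily, at 2.06 ± 0.28, AT1G08050, a RING zinc finger protein, at 2.02 ± 0.28, and AT5G55420 at 1.88 ± 0.31. Over the 12 genes, SA minus silwet was 1.04 to 2.73 in run pair 1, −0.96 to 0.65 in run pair 2 and −0.83 to 0.08 in run pair 3. In run pair 1 the SA arrays lay above all silwet arrays for all 12, in run pair 2 below them for 3 and overlapping for 9, and in run pair 3 below for 2 and overlapping for 10. These genes were chosen for this pattern among 4.53% of probe sets called positive, so the counts only describe them.

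Of the 12 largest negative named values, that of AT3G20820, a leucine-rich repeat protein, had the smallest standard error. AT3G20820 had log2 levels of 7.67, 7.10 and 7.22 on the SA arrays of run pair 1, against 8.87, 8.75 and 8.81 on the silwet arrays. Run pair 2 gave AT3G20820 9.54, 9.43 and 9.12 under SA and 9.07, 8.87 and 8.61 under silwet. In pair 3, AT3G20820 had 9.94, 9.43 and 9.30 under SA and 9.43, 9.01 and 9.05 under silwet. SA was the lower in run pair 1 and the higher in run pair 2, without overlap, and overlapped silwet in run pair 3. For AT3G20820, SA minus silwet came to −1.48, 0.51 and 0.39 in run pairs 1, 2 and 3 (SE 0.14 each), a difference of differences of −1.93 ± 0.17 (SE; limma adjusted p = 3.14e-05). Others were AT5G62360, described above, AT1G60590, a pectin lyase-like protein, at −1.95 ± 0.49 (SE; limma adjusted p = 0.0195), and AT1G67750, a pectate lyase, at −1.78 ± 0.51 (limma adjusted p = 0.0364). AT1G67750 was called in 7 of the 18 fits with 1 array left out, and not without the replicate number, with an offset of 64 or with no filter. AT1G60590 was called in 15 of the 18. AT4G01130 and AT1G29660, both GDSL-type lipases, stood at −2.08 ± 0.27 (limma adjusted p = 0.000296) and −1.94 ± 0.38 (limma adjusted p = 0.00444). The rest were AT2G43550, of a knottin family, at −1.90 ± 0.30, AT1G78450, of the SOUL heme-binding family, at −1.88 ± 0.33, and AT3G21670, a nitrate transporter family member, at −1.77 ± 0.37. Over the 12 genes SA minus silwet was −1.77 to −1.23 in run pair 1, 0.32 to 0.997 in run pair 2 and 0.06 to 0.80 in run pair 3. The SA arrays lay below all silwet arrays for 11 of the 12 in run pair 1, and above them for 3 in run pair 2 and for 4 in run pair 3. These genes too were chosen for this pattern, among 4.42% of probe sets called negative, so the counts only describe them.

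**Figure D5:**
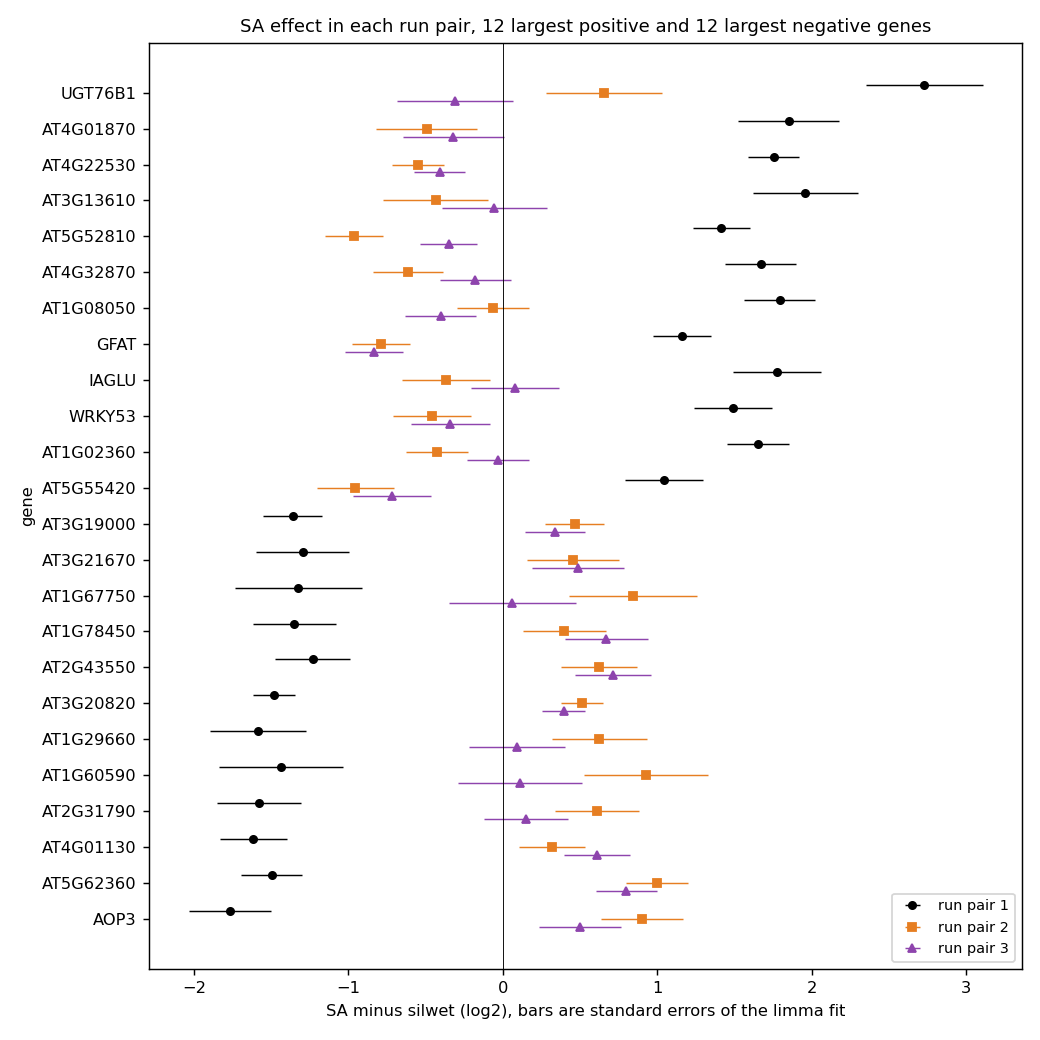
SA minus silwet (x axis, log2) in run pairs 1, 2 and 3 for the 12 largest positive and 12 largest negative named genes (rows), with standard errors of the limma fit as bars. Run pair 1 stands apart from both later pairs in every row, at 1.04 to 2.73 for the positive genes and −1.77 to −1.23 for the negative ones. The genes were chosen by that difference.

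For photosynthesis, expansin and clock genes the counts were near the 8.95% called over all probe sets. Of 9 tested photosynthesis genes, 1 was called negative and 8 not called, with a median of −0.05. PRK, phosphoribulokinase of the Calvin cycle, was the 1 called. PRK read 10.58, 10.25 and 10.37 under SA in run pair 1, against 11.05, 11.01 and 10.86 under silwet. Levels of 11.17, 11.28 and 10.94 under SA, against 10.996, 10.92 and 11.09 under silwet, followed in run pair 2. Levels of 10.93, 11.26 and 11.15 under SA, against 11.05, 11.10 and 11.31 under silwet, made up run pair 3. SA was below silwet in run pair 1 without overlap, and overlapped it later. PRK gave SA minus silwet of −0.57, 0.13 and −0.04 in run pairs 1, 2 and 3 (SE 0.13 each). For PRK the difference of differences was −0.61 ± 0.15 (SE; limma adjusted p = 0.0187). Of 9 tested expansins, which loosen cell walls, 0 were called, EXPA8 having −0.55 ± 0.55 and EXPA9 −0.21 ± 0.18. The 3 tested clock genes gave 0 calls, GI having −0.65 ± 0.41 and AT5G52660 −0.17 ± 0.18. Of 5 tested cold, dehydration and abscisic acid genes 1 was called, where 8.95% of all probe sets were. That was COR15B, a chloroplast cold-protection protein, at −0.93 ± 0.21 (SE; limma adjusted p = 0.00984), with COR15A at −0.78 ± 0.31 and COR47 at −0.60 ± 0.19 not called. LTI30 at 0.67 ± 0.36 and LEA4-5 at 0.61 ± 0.29 had the opposite sign and were not called either. The senescence list of 4 tested shares WRKY53, WRKY6 and SAG101 with lists above and adds SAG29 at 0.29 ± 0.43.

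Jasmonate and ethylene defence genes gave 0 calls among 4 tested, with wide intervals, where 8.95% of all probe sets were called. PDF1.2, a defensin and marker of those hormones, had the largest standard error of the named genes. PDF1.2 measured 7.68, 5.73 and 6.66 on SA arrays 46 to 48, against 7.47, 6.18 and 7.67 on silwet arrays 37 to 39. PDF1.2 then had 7.04, 5.84 and 7.73 under SA and 10.31, 11.29 and 9.11 under silwet in run pair 2. PDF1.2 ended with 6.61, 10.29 and 6.46 under SA and 7.07, 10.14 and 6.43 under silwet in run pair 3. Its 3 silwet arrays of run pair 2 were high, as were SA and silwet replicate 2 of run pair 3. PDF1.2 thus differed between SA and silwet by −0.42, −3.37 and −0.09 in run pairs 1, 2 and 3 (SE 0.94 each). This made a difference of differences of 1.31 ± 1.16 (SE; limma adjusted p = 0.571). PDF1.2b had 0.93 ± 0.92 (limma adjusted p = 0.625). With silwet titles 40 to 42 as the partner of SA titles 46 to 48, PDF1.2 had −3.38 and PDF1.2b −2.50. Both were called in that fit, so neither has a settled direction.

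Markers of other cells were looked at because no tissue is given. The 9 tested photosynthesis genes had mean levels of 7.52 to 11.8. Of root cell markers 3 of 16 loci were tested, at 4.70 to 7.18, with 0 called, where 8.95% of all probe sets were called. PYK10, a root beta-glucosidase, had −0.63 ± 0.42 and AT5G05960 0.26 ± 0.27. Of flower, pollen and seed markers 1 of 23 loci was tested, AT3G01270 at a mean level of 4.68 and a difference of differences of −0.01 ± 0.19. Of guard cell and trichome markers 3 of 10 were tested with 0 called, FMA, which specifies guard cells, having −0.38 ± 0.16 and AT5G24240 0.61 ± 0.31. The part of such cells in the results was not tested. In bulk RNA, fewer cells of a type and less RNA per cell cannot be told apart.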

How the data were processed

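Biotin-labelled total RNA of 1 sample per array was hybridised to Affymetrix ATH1 arrays, and the authors deposited 1 signal intensity per probe set and array, which the submitters' processing notes credit to MAS5. The trimmed mean of the signals (2% off each end) was 100.0 on every array, so each array had been scaled to a common mean. No pair of arrays held identical values. Of 22810 probe sets, 64 controls and those in the lowest 25% by mean level were left out, which left 17059, and 16 was added before log2.

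One linear model held run pair, treatment, their interaction, and replicate number over all 18 arrays (10 residual degrees of freedom). It was fitted with limma 3.58.1 in R 4.3.3 (lmFit, eBayes with a variance trend), and figures were drawn with matplotlib 3.10.9. Replicate number entered the model by the rule for this comparison, and it was checked whether same-numbered arrays deviated together. Their mean deviations in SA and silwet correlated at r = 0.757, 0.564 and 0.646 across probe sets for numbers 1, 2 and 3. Within single run pairs the 9 correlations lay between −0.0892 and 0.608, the lowest being 0.0019 and −0.0892 for numbers 2 and 3 of run pair 2. The labels do not say what a number shares, and the numbers are not shown to pair the arrays.

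Of 14016 probe sets in the annotation table, 13513 carry 1 gene and 503 several, and 13436 of the former matched a RefSeq locus, and 7561 tested probe sets are unnamed here. The members, the 19 gene lists (535 loci, 119 named on the array, 108 tested) and the tests were chosen with earlier results of these data known. Named genes are the 12 largest called values of each sign with the same sign in all 3 numbers, the 4 largest of each class, and up to 4 called members of each list (or the 2 with the smallest p); further list members were named after their values were seen. One probe set stands for a locus, that with the highest mean. Alternatives covered the offset, normalization, filter, replicate number, array weights, variance trend, a 2-fold limit, the 3′ to 5′ ratio, the silwet partner and left-out arrays. Promoter sequences and keyword families were not used here.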

Additional observations from a re-analysis of the deposited data

Results flagged for a closer look

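All results listed here stand out because the SA effect differed between run pairs by a test of that difference itself. The differences against the mean of run pairs 2 and 3 were called for 772 probe sets with a positive and 754 with a negative sign, those against run pair 2 alone for 1296 and those against run pair 3 alone for 712, and 8 probe sets reversed. Groups of 3 arrays were too small for a check of single outlying arrays.

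The positive differences of differences (log2) of named genes were 2.56 for UGT76B1, 2.26 for AT4G01870, 2.23 for AT4G22530, 2.20 for AT3G13610, 2.07 for AT5G52810, 2.06 for AT4G32870 and 2.02 for AT1G08050. Values between 1.5 and 2 were 1.97 for GFAT, 1.92 for IAGLU, 1.89 for WRKY53, 1.88 for AT1G02360, 1.88 for AT5G55420, 1.71 for AT1G11330, 1.66 for ATERDJ3B, 1.61 for GRX480 and 1.55 for AT3G60540. Smaller ones were 1.25 for AT3G01830, 1.21 for AT4G01700, 1.10 for AT1G29310, 1.03 for DER1, 0.95 for UGT73B5, 0.82 for SD1-29, 0.78 for AT5G55450, 0.74 for UGT73B4 and 0.73 for SAG101.

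The negative ones were −2.46 for AOP3, −2.40 for AT5G62360, −2.08 for AT4G01130, −1.96 for AT2G31790, −1.95 for AT1G60590, −1.94 for AT1G29660, −1.93 for AT3G20820, −1.90 for AT2G43550, −1.88 for AT1G78450, −1.78 for AT1G67750, −1.77 for AT3G21670 and −1.76 for AT3G19000. Smaller ones were −1.27 for BCAT4, −0.93 for COR15B, −0.79 for GSTU20, −0.61 for PRK and −0.60 for AT1G54050.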

How the results depend on the processing

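Counts of positive and negative probe sets were 695 and 773 with an offset of 1, 871 and 704 with an offset of 64, 862 and 720 after quantile normalization, 658 and 597 with no filter, 762 and 794 with a filter at the median, 796 and 766 with no variance trend, and 758 and 763 with the 3′ to 5′ ratio as covariate. With no replicate block they were 431 and 405 (675 calls against run pair 2, 222 against run pair 3), and with the replicate block within run pair 783 and 832. Array weights gave 1503 and 1876 (2706 and 2350), and a limit of 2-fold gave 4 and 1 (0 and 0). With silwet titles 40 to 42 as the partner of SA titles 46 to 48 they were 3109 and 2826, and with titles 43 to 45 they were 2195 and 2737. In those fits 1493 and 1512 of the 1526 called probe sets kept their sign. They had been chosen by the same arrays, so this is no separate support. Without titles 40, 43 and 52, chosen with earlier results known, they were 865 and 916. Leaving out replicate numbers or single arrays gave 44 to 997 positive and 15 to 1165 negative calls, 13 to 1899 against run pair 2 and 1 to 1097 against run pair 3. Required against run pairs 2 and 3 each, 505 calls of either sign were left, an alternative chosen after seeing the data. Run pair 2 minus run pair 3 gave 0 calls in every fit that tested it, which were all but those with another silwet partner. Reversed probe sets numbered 9 with either offset, 14 after quantile normalization, 1 without the filter, 11 with the median filter, 0 with no replicate block, 17 with the block within run pair, 86 with array weights, 7 with no variance trend, 0 with the 2-fold limit, 1 with the covariate, 0 without the 3 titles, and 0 to 31 with arrays left out. The 2-fold limit sets a stricter hypothesis by construction. The cause of the other shifts was not tested, and fits with fewer arrays gave both fewer calls and more.

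Of the 42 called genes that are named, 30 were called in every fit that leaves out 1 array, 11 in all 3 fits that leave out a replicate number, while 40 were not called at the 2-fold limit. Those not called in every single-array fit were AT1G67750, SAG101, AT4G01700, PRK, BCAT4, GSTU20, AT1G54050, COR15B, SD1-29, AT1G60590, UGT73B5 and UGT73B4. With no replicate block 7 were not called: AT1G67750, SAG101, AT1G78450, AT1G54050, COR15B, SD1-29 and UGT73B4.

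Signs turned in a few genes that were not called in the main fit. AT3G01270 had 0.0021 with an offset of 64, 0.0304 after quantile normalization, 0.0583 with array weights, 0.131 with silwet titles 40 to 42 as the partner and −0.137 to 0.116 with arrays left out. With that partner PDF1.2 had −3.38, PDF1.2b −2.50, AT5G05960 −1.21, FMA 0.129 and GI 0.347. Of these, PDF1.2, PDF1.2b and AT5G05960 were called with the turned sign. With silwet titles 43 to 45, AT5G05960 had −0.693 and PDF1.2b −0.581. With 3 arrays per run, the 95% interval of a difference of differences had a median half-width of 0.44, so changes smaller than this were mostly not detectable.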

Other observations

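Some called genes lay beside each other in the genome. Over 3419 pairs of tested loci that follow each other among the protein-coding genes of the RefSeq gene table, loci called positive held 322 places. In 40 of these places (12.4%) the other locus of the pair was called positive too, where 4.71% of all places were. For negative calls the count was 32 of 300 places (10.7%), where 4.39% of all places were called negative. A locus with a tested neighbour on each side is counted once in each pair, so the places are not separate genes. No test was made of these shares. The 20 positive and 16 negative pairs include members of the same gene family, whose probe sets can share signal.

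Among the positive pairs, AT5G52750 and AT5G52760, both of a heavy metal-associated domain family, had differences of differences of 1.15 and 1.58. AT1G23840 and AT1G23850 had 1.68 and 1.49. AT3G57010 and AT3G57020, of the strictosidine synthase-like family, had 1.07 and 1.77. AT1G11330 had a neighbour, AT1G11320, at 0.69. Among the negative pairs, AOP3 and AT4G03070, its relative in glucosinolate side-chain modification known as AOP1, had −2.46 and −1.39. The GDSL-type lipases AT1G29660 and AT1G29670 had −1.94 and −1.07. AT2G29310 and AT2G29320, of the tropinone reductase-like family, had −1.26 and −1.25. The inhibitor family genes AT5G62350 and AT5G62360 had −0.69 and −2.40. AT2G43530 and AT2G43535, of the same knottin family as AT2G43550, had −1.19 and −1.02.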
